A study of Mus musculus with 6 samples.

Results

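Sensor and pyroptosis genes of innate immunity, 10 in number, were followed through a graded induction of 4 reprogramming factors in mouse small intestinal organoids. They were chosen by name, and all 10 of 10 were found by symbol among the 55416 gene rows: the sensors Nlrp10, Nlrp6, Nod1, Nod2, Tlr2 and Tlr3, the adaptors Myd88 and Pycard, the pore-forming gene Gsdmd and the cytokine gene Il18. All 10 passed the filter on low counts that left 16975 genes for testing. At 0.5 µg/ml doxycycline 7 of the 10 were higher and 3 were lower than in untreated organoids, beside 67.5% of all tested genes called at that dose (34.4% higher, 33.1% lower), and the change in Nlrp10 exceeded that in the other 9 by far (911-fold, against 15.5-fold for Nod1, the next).

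Organoids are gel-embedded cultures of epithelial cells, here grown from the small intestine of mice 4 to 8 weeks old carrying 2 transgenes, Rosa26-rtTA Tg/Tg together with Col1A1-TetO-OSKM Tg/Tg, through which doxycycline lets a transactivator switch on Oct4 (Pou5f1), Sox2, Klf4 and Myc from 1 cassette. The control group had no doxycycline, and the low-dose (0.1 µg/ml) and high-dose (0.5 µg/ml) groups had it for 3 days, with 2 libraries per group. All groups carry both transgenes, and no organoids without the cassette are analysed here, so responses to the factors and to doxycycline itself cannot be told apart. The series calls the libraries biological replicates without saying whether they came from separate mice or separate cultures, so p-values measure the spread between these libraries only.

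Epithelial cells detect microbes through receptor families that feed a small set of adaptors. Toll-like receptors sit in membranes and signal mostly through Myd88 to NF-kB. NOD1 and NOD2 recognise fragments of bacterial cell wall in the cytosol and signal through the kinase RIPK2, while several NLRP proteins can seed inflammasomes, in which the adaptor ASC (gene Pycard) gathers caspase-1. Caspase-1 matures IL-18 and cuts gasdermin D, whose freed fragment opens pores in the plasma membrane and can kill the cell by pyroptosis.

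Library totals ranged from 45.3 to 72.5 in units of 1000000 expected counts. Pou5f1, Sox2, Klf4 and Myc were called higher at both doses, in the direction the labels give, though gene counts do not separate the cassette from the endogenous genes. The 7 epithelial markers (Epcam, Cdh1, Vil1, Krt8, Krt18, Krt19, Cldn7) summed to 4658 to 4778 CPM (counts per 1000000 after TMM scaling) in control, 5537 to 5694 at 0.1 µg/ml and 7409 to 7474 at 0.5 µg/ml; 4 of the 7 were higher and 3 (Epcam, Krt18 and Cldn7) lower at 0.5 µg/ml, and Krt8 alone went from 1144 ± 45.8 to 3102 ± 26.4 CPM (SD, n = 2). The 12 leukocyte markers summed to 4.77 to 5.08, 7.17 to 7.56 and 15.0 to 15.7 CPM in the same order. Only 4 of them were high enough to test, of which 3 were higher and 1 lower at 0.5 µg/ml (median log2 fold change 2.09), and 3 of the 12 were at 0 in every library. From control to 0.5 µg/ml the 8 fibroblast markers went from 1.50 to 1.76 up to 6.05 to 6.66 CPM in sum. Only 3 of them were tested, with 2 higher and 1 lower at 0.5 µg/ml. The 7 endothelial markers went from 0.709 to 0.957 up to 4.47 to 4.90 CPM. Of these, 2 were tested, with 2 higher at 0.5 µg/ml, and 3 were at 0 in every library. Within the epithelium, the 8 Paneth cell markers fell in sum from 1218 to 1372 CPM in control to 148 to 157 at 0.5 µg/ml. The 8 goblet cell markers fell in sum from 3150 to 3440 CPM to 755 to 762 CPM. Crypt base stem cell markers, 7 in number, fell in sum from 1289 to 1595 CPM to 307 to 329 CPM, with 6 lower and 1 higher. The 7 tuft cell markers went from 3.48 to 4.91 up to 416 to 424 CPM in sum. Only 5 tuft cell markers were tested, with 4 higher and 1 lower at 0.5 µg/ml. In bulk RNA, fewer cells of a type and less RNA per cell cannot be told apart, and the part of this changing make-up in the results below was not tested.

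RefSeq upstream sequences (build GRCm38.p6) matched 8 of the 10 genes, leaving Nlrp10 and Gsdmd unprinted. The windows of 3 genes are shown because their RNA moved clearly and because the 250 bases before the RefSeq start lie outside every GENCODE M21 exon: Il18 and Nod1 as genes that rose, Nlrp6 as one that fell. Capitals mark matches, on either strand, to any of 6 short motifs: the octamer ATGCAAAT bound by Oct4, a SOX motif ACAATGG, a KLF motif GGGNGTGG, the Myc E-box CACGTG, a kB motif GGGNNTTCC and an interferon-stimulated response element (ISRE: GAAA, any 2 bases, GAAA). The motifs were chosen with the sequences in view.
Il18, chr9:50554450-50554699, plus strand: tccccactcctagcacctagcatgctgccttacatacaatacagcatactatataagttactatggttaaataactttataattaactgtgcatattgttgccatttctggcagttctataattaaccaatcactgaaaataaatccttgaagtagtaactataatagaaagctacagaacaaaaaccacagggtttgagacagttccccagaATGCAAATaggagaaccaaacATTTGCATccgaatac
Nod1, chr6:54972613-54972862, minus strand: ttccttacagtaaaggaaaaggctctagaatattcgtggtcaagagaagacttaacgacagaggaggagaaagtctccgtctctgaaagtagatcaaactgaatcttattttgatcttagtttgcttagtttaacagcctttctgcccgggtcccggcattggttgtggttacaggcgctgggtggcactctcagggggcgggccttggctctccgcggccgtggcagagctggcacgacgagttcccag
Nlrp6, chr7:140920652-140920901, plus strand: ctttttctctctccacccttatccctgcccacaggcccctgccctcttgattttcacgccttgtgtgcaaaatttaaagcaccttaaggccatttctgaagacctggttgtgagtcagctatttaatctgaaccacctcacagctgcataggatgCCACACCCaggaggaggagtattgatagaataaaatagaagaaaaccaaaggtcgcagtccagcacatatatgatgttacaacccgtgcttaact

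The Il18 window holds 2 octamers in opposite orientations, at -37 to -30 and -16 to -9 counted from the RefSeq start, and GENCODE begins the gene 128 bases after the window ends. Of 32536 distinct mouse windows of this length, 1.62% held at least 1 octamer and 0.0984% held 2 or more. Nlrp6 holds 1 KLF match at -95 to -88, a motif found in 15.9% of windows. The Nod1 window shown holds none of the 6. Among the windows not shown, Nod2 holds a kB match at -219 to -211 and a KLF match at -82 to -75. Tlr2 holds 2 kB matches on opposite strands, offset by 1 base, within -172 to -163. Tlr3 holds a SOX match at -241 to -235 and Myd88 an ISRE at -40 to -31. GENCODE begins Tlr3 and Myd88 upstream of their windows, so these matches lie inside the annotated genes. Taken with their flanking bases, the Tlr2, Tlr3 and Myd88 matches touch GENCODE exons. Of all windows, 5.0% held at least 1 kB match, 3.03% a SOX match and 2.98% an ISRE. A match describes the letters in the window and is no evidence of binding.

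Levels between genes were compared as TPM, which divides by transcript length. In control organoids Pycard stood highest at 98.0 ± 8.86 TPM (SD, n = 2) and Nlrp6 next at 61.2 ± 4.42 TPM. Myd88 (16.7 ± 0.375 TPM) and Gsdmd (14.7 ± 3.38 TPM) overlapped between libraries, followed by Tlr3 at 9.64 ± 1.38 and Il18 at 5.25 ± 0.304 TPM. Tlr2, Nod1, Nod2 and Nlrp10 were all below 1 TPM, Nlrp10 being lowest at 0.0450 ± 0.00707 TPM. At 0.5 µg/ml Pycard was still highest at 78.7 ± 1.85 TPM, but Nlrp10, at 37.2 ± 4.90 TPM, had come level with Gsdmd, at 37.2 ± 1.34 TPM, and both lay above Nlrp6, at 32.0 ± 1.59 TPM. Nod1 rose to 15.0 ± 1.51 TPM, overlapping Il18 at 17.8 ± 3.61 TPM, and Nod2 was then the lowest at 0.875 ± 0.0212 TPM.

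The first question was how the sensors differed between each dose and the untreated state. Nlrp10 (ENSMUSG00000049709), an NLR family member that lacks the leucine-rich repeats of its relatives, was almost silent in control, with 7 and 9 counts or 0.142 and 0.180 CPM in the 2 libraries. It stood at 5.59 and 5.18 CPM at 0.1 µg/ml and at 137 and 160.0 CPM at 0.5 µg/ml. The 3 groups were far apart, and each step was called. The fitted rise over control was 33.2-fold at 0.1 µg/ml (log2 fold change 5.05 ± 0.23 SE, edgeR adjusted p = 2.18e-07) and 911-fold at 0.5 µg/ml (9.83 ± 0.15, adjusted p = 3.58e-11), and between the doses the rise was 27.5-fold (adjusted p = 1.51e-09).

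Nod1 (ENSMUSG00000038058), the sensor of diaminopimelic acid-containing peptidoglycan, moved in the same direction at a smaller scale. Its libraries held 2.75 and 2.35 CPM in control, 5.17 and 4.95 CPM at 0.1 µg/ml and 38.4 and 40.6 CPM at 0.5 µg/ml, with no overlap. Most of the rise lay between the doses: 1.99-fold at 0.1 µg/ml over control (edgeR adjusted p = 7.37e-05) and 7.79-fold from 0.1 to 0.5 µg/ml (adjusted p = 7.34e-09), for 15.5-fold in all (adjusted p = 4.41e-10). Nod2 (ENSMUSG00000055994), the sensor of muramyl dipeptide, lay near Nod1 in control, at 0.565 ± 0.00707 against 0.715 ± 0.0636 TPM, but changed less. It held 2.07 and 2.11 CPM in control and 2.22 and 2.14 CPM at 0.1 µg/ml, where it did not pass (edgeR adjusted p = 0.778). At 0.5 µg/ml its 3.44 and 3.64 CPM lay above both other groups, 1.69-fold over control (adjusted p = 0.00106).

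Nlrp6 (ENSMUSG00000038745), which in intestinal epithelium is tied to mucus secretion and defence against microbes, was the most abundant of the described sensors in control and fell. Its libraries held 199 and 209 CPM in control, 185 and 185 CPM at 0.1 µg/ml and 111 and 118 CPM at 0.5 µg/ml. The fall of 1.78-fold at 0.5 µg/ml (edgeR adjusted p = 1.75e-07) came mostly between the doses (1.62-fold, adjusted p = 1.26e-06). At 0.1 µg/ml the fall of 1.10-fold passed narrowly (adjusted p = 0.0375) and was lost without control replicate 2 (0.111), without either library of the low dose (0.102 and 0.0784) and with limma on TPM (0.113 to 0.217). Of the 8 goblet cell markers 2 were higher and 6 lower at 0.1 µg/ml (median log2 fold change -0.64). At 0.5 µg/ml 1 was higher, 6 were lower and 1 did not pass (median -2.17). The 10 absorptive cell markers went the other way at 0.1 µg/ml, with 6 higher and 1 lower (median 0.55), and had 1 higher and 6 lower at 0.5 µg/ml (median -0.48). Of all tested genes 13.8% were lower at 0.1 µg/ml and 33.1% at 0.5 µg/ml.

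Read together, the 4 described NOD-like receptor genes changed their proportions. Nlrp6 made up 97.9 ± 0.250% (SD, n = 2) of their summed TPM in control and 93.4 ± 0.199% at 0.1 µg/ml, but 37.7 ± 1.68% at 0.5 µg/ml. Nlrp10 went from 0.0717 ± 0.00631% to 2.41 ± 0.111% and 43.6 ± 1.64%, and Nod1 from 1.15 ± 0.182% to 3.18 ± 0.0872% and 17.7 ± 0.112%. The sum itself was 62.6 ± 4.36, 58.3 ± 0.0424 and 85.0 ± 8.03 TPM. The shares are descriptions over 2 libraries a group, with no test.

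**Figure D1:**
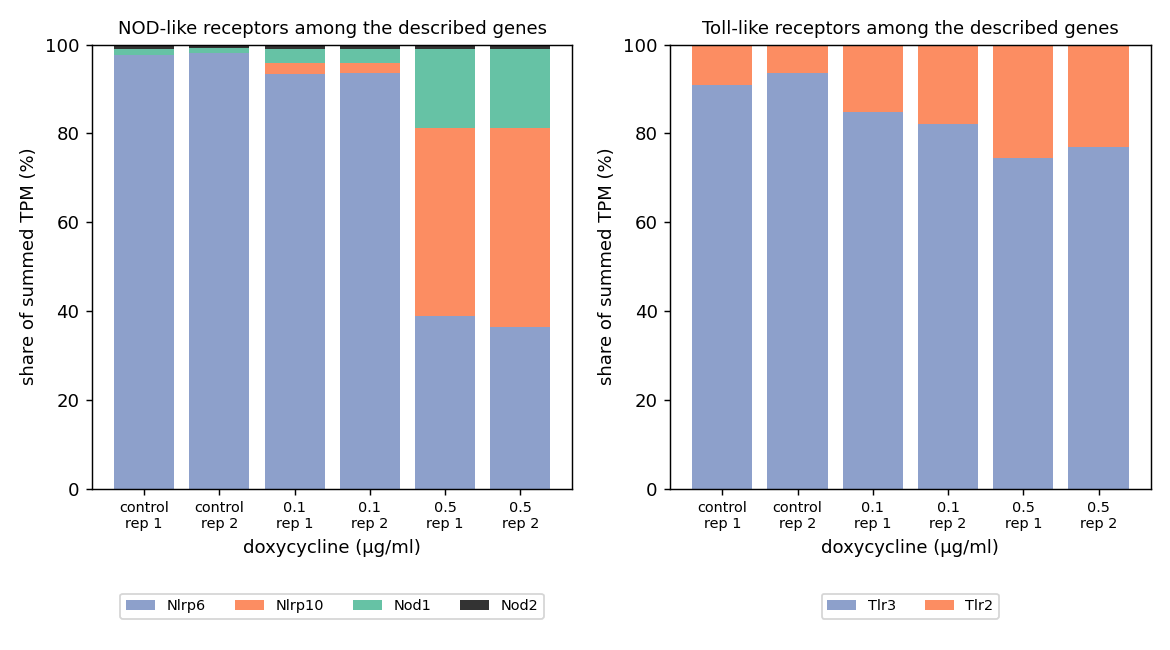
Stacked bars give each gene's share (%) of the summed TPM of the 4 described NOD-like receptor genes (left) and of Tlr3 and Tlr2 (right) in each of the 6 libraries, ordered by doxycycline dose. Other genes of these families are not in the bars. Nlrp6 fills 97.7% and 98.0% of the left-hand bar in control and 38.8% and 36.5% at 0.5 µg/ml, where Nlrp10 reaches 42.5% and 44.8%.

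The Toll-like receptors went opposite ways. Tlr3 (ENSMUSG00000031639), the endosomal receptor for double-stranded RNA, stood at 17.3 and 19.1 CPM in control, 15.1 and 14.2 CPM at 0.1 µg/ml and 7.74 and 7.65 CPM at 0.5 µg/ml, each group below the one before. It fell 2.37-fold at 0.5 µg/ml (edgeR adjusted p = 6.16e-07) and 1.24-fold at 0.1 µg/ml (adjusted p = 0.0116, lost without control replicate 2 at 0.0557 and with limma on unfiltered TPM at 0.134). Tlr2 (ENSMUSG00000027995), a surface receptor for bacterial lipoproteins, was low throughout, at 2.15 and 1.74 CPM in control, 3.32 and 3.91 CPM at 0.1 µg/ml and 3.28 and 2.67 CPM at 0.5 µg/ml. Both treated groups lay above control, 1.86-fold at 0.1 µg/ml (adjusted p = 0.00381, lost with limma on unfiltered TPM at 0.0809) and 1.52-fold at 0.5 µg/ml (adjusted p = 0.0144), with no call between the doses (adjusted p = 0.182). Of the TPM of the pair, Tlr2 made up 7.73 ± 1.96% (SD, n = 2) in control, 16.4 ± 1.90% at the low dose and 24.3 ± 1.74% at the high dose, while the sum went from 10.4 ± 1.27 to 4.66 ± 0.219 TPM. The Tlr2 call at 0.5 µg/ml rested on single libraries: without control replicate 2 the adjusted p was 0.0986 and without high-dose replicate 1 it was 0.117, and limma on TPM gave 0.0738 to 0.150.

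Of the adaptors, Myd88 rose slightly and Pycard fell slightly. Myd88 (ENSMUSG00000032508) held 26.4 and 24.8 CPM in control, 29.0 and 29.8 CPM at 0.1 µg/ml and 31.6 and 32.4 CPM at 0.5 µg/ml, a rise of 1.25-fold at the high dose (edgeR adjusted p = 4.57e-04). The 1.15-fold rise at 0.1 µg/ml (adjusted p = 0.0174) was lost with DESeq2 (0.0699), with limma on TPM (0.109 to 0.155) and without any 1 of 5 libraries (0.0504 to 0.156), the exception being the left-out control replicate 1. Exons of Myd88 overlap those of Acaa1a on the other strand, which held 2345 to 5527 counts against 1244 to 2100 for Myd88. The counting did not keep strands apart where Pycard overlaps another gene, as given below, so small changes in Myd88 are uncertain.

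Pycard (ENSMUSG00000030793), the abundant inflammasome adaptor, held 99.3 and 111 CPM in control, 121 and 113 CPM at 0.1 µg/ml and 87.0 and 88.2 CPM at 0.5 µg/ml. The high-dose libraries lay below both other groups. The fall was 1.20-fold against control (edgeR adjusted p = 0.00303) and 1.33-fold against 0.1 µg/ml (adjusted p = 2.22e-04), while at 0.1 µg/ml Pycard was 1.11-fold above control and did not pass (adjusted p = 0.0770). That difference passed, as a rise, without control replicate 2 (adjusted p = 0.0219) and with no low-count filter beyond a single count (0.0392). Its expected counts had decimals in all 6 libraries, which RSEM gives where it divides reads between genes, and its exons overlap those of Gm45205 on the other strand, which held 39.7 to 115 counts. In each library the counts of Pycard and Gm45205 add to a whole number, such as 4901.04 and 74.96 in the first control library. Reads were thus divided between these genes on opposite strands, and strand was not used to separate them.

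Gsdmd (ENSMUSG00000022575), which encodes the pore former cut by caspases, rose at each step. Its libraries held 11.8 and 15.9 CPM in control, 21.9 and 22.9 CPM at 0.1 µg/ml and 38.1 and 36.4 CPM at 0.5 µg/ml, so that the wider control spread did not reach the treated groups. The rise over control was 1.61-fold at 0.1 µg/ml (edgeR adjusted p = 0.00111, lost with limma on unfiltered TPM at 0.0867) and 2.68-fold at 0.5 µg/ml (adjusted p = 1.75e-06), and it was 1.67-fold between the doses (adjusted p = 1.92e-04). Il18 (ENSMUSG00000039217), whose product is released in mature form after caspase-1 cleavage, held 2.88 and 2.87 CPM in control, 9.45 and 8.60 CPM at 0.1 µg/ml and 9.30 and 12.1 CPM at 0.5 µg/ml. It was 3.15-fold higher at 0.1 µg/ml (adjusted p = 1.95e-05) and 3.73-fold higher at 0.5 µg/ml (adjusted p = 1.53e-06), and the treated groups overlapped each other (adjusted p = 0.120). With high-dose replicate 1 left out, the step between the doses was called (log2 fold change 0.42, edgeR adjusted p = 0.0189). Bco2 spans the Il18 locus on the other strand with no shared exon, at 7.21 ± 0.376, 14.6 ± 3.57 and 7.23 ± 1.28 CPM (SD, n = 2) by rising dose.

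**Figure D2:**
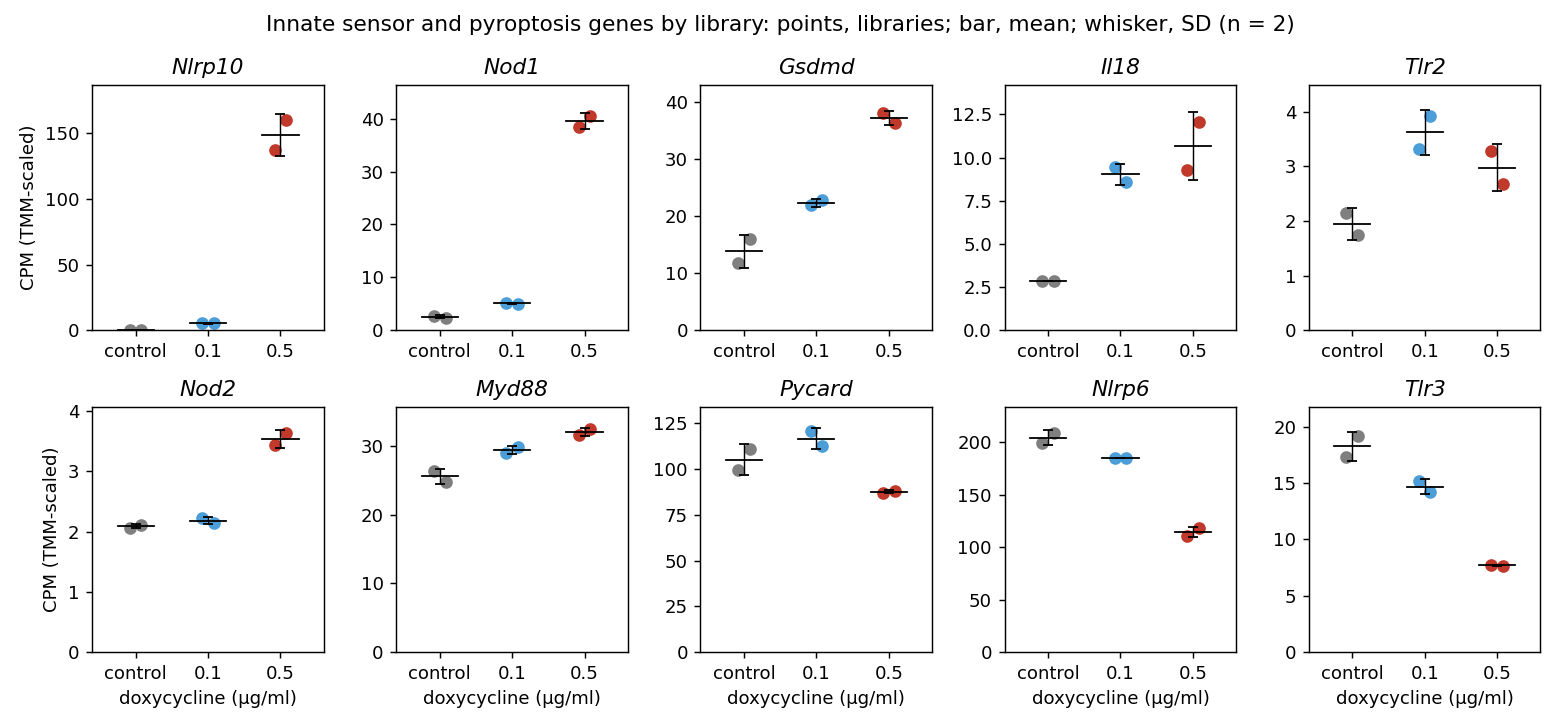
Each panel gives the CPM (TMM-scaled, axis from 0) of 1 gene in the 6 libraries against doxycycline dose, with points for libraries, a bar for the mean and whiskers for the SD (n = 2). Nlrp10 goes from 0.142 and 0.180 CPM in control to 137 and 160.0 CPM at 0.5 µg/ml, whereas Nlrp6 and Tlr3 step downwards.

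Over all 10 genes, 6 rose and 2 fell at the low dose, where 34.6% of all tested genes were called in either direction, 20.8% higher and 13.8% lower. At the high dose 7 rose and 3 fell, and with 67.5% of all tested genes called, a call at this dose was common. Between the doses 4 rose and 3 fell, against 58.9% called (29.8% higher, 29.1% lower). The libraries of the low dose and control did not overlap in CPM for any of the 10 genes, as for 67.8% of tested genes. The same held for all 10 genes between the high dose and control, as for 84.1% of tested genes. Between the doses it held for 9 of 10, all but Il18, against 80.7%. Changes that were at least 2-fold and past the test were seen for 2 of 10 at 0.1 µg/ml (Nlrp10 and Il18), where 9.65% of tested genes reached that size, for 5 of 10 at 0.5 µg/ml (Nlrp10, Nod1, Gsdmd, Il18 and Tlr3) against 27.1%, and for 2 of 10 between the doses (Nlrp10 and Nod1) against 19.3%. The median log2 fold change of the 10 genes was 0.44 at 0.1 µg/ml, 0.68 at 0.5 µg/ml and 0.18 between the doses, beside 0.02, -0.0045 and -0.02 over all tested genes. The genes were named with earlier results of these data known, so these counts describe them and do not test the group. The comparisons of both doses with control share the control libraries.

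The shape of the response differed among the genes. Nlrp10, Nod1 and Gsdmd were called higher at each step, and Tlr3 and Nlrp6 lower at each step. Il18 and Tlr2 were called at 0.1 µg/ml with no call from there to 0.5 µg/ml, and so was Myd88 (edgeR adjusted p = 0.0711 between the doses, 0.0322 with RLE scaling). Nod2 and Pycard were called only in the comparisons with the high dose.

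**Figure D3:**
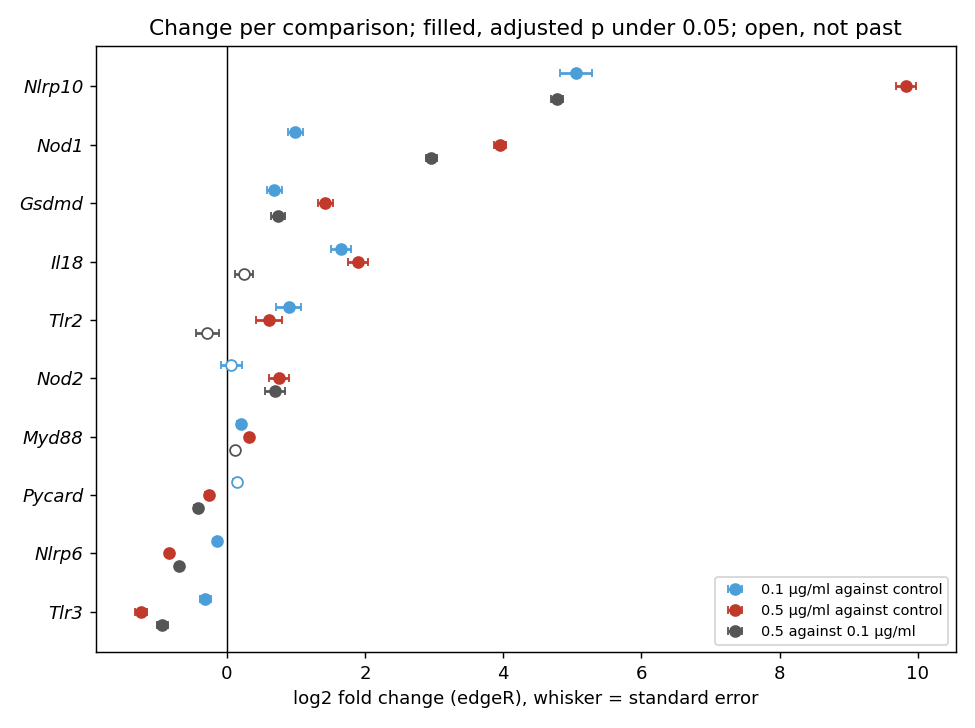
Points give the log2 fold change (x axis) of each gene (y axis) in the 3 comparisons, with whiskers for the standard error; filled points have an edgeR adjusted p under 0.05 and open points do not. Nlrp10 reaches 9.83 and Nod1 3.95 at 0.5 µg/ml against control, while the other 8 lie between -1.24 and 1.90.

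The related genes were read from 8 fixed lists with 143 entries, of which 103 were tested. At 0.1 µg/ml 38 were higher and 12 lower, where all tested genes also leaned higher, though less (20.8% against 13.8%). Higher calls made up 76.0% of the calls in the lists and 60.0% over all tested genes. With upper quartile scaling these shares were 68.8% and 50.4%. The lists were chosen with earlier results of these data known, and the difference was not tested. At 0.5 µg/ml 45 were higher and 37 lower, beside 34.4% and 33.1% of all tested genes. With limma on log2(TPM + 1) the lean turned in the lists, with 27 higher and 33 lower of 83. It turned over all genes too, with 3816 higher and 5085 lower of 13313. Between the doses 35 were higher and 38 lower, beside 29.8% and 29.1%. The same limma fit gave 18 and 31 in the lists, and 3146 and 4268 over all genes. Changes of the genes named from here on are log2 fold changes at 0.5 µg/ml against control unless another comparison is given, and those said to rise or fall had edgeR adjusted p values under 0.05.

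Of the 22 other NLR and inflammasome sensors 10 were tested, of which 5 rose, 4 fell and 1 did not pass at 0.5 µg/ml (median 0.22, against -0.0045 for all tested genes). Aim2, the cytosolic DNA sensor, rose by 4.43, from 2.04 ± 0.0772 CPM in control to 17.3 ± 0.355 CPM under the low dose, then 44.0 ± 0.440 CPM (SD, n = 2) under the high dose. Nlrx1, a mitochondrial NLR, rose by 1.75, to 9.27 ± 0.375 CPM. Nlrp2 had no count in control or at 0.1 µg/ml and reached 0.618 ± 0.0331 CPM at 0.5 µg/ml, at least 10.2-fold higher than a floor of 3 counts per library. The Naip genes, receptors for flagellin and secretion system proteins, went down: Naip1 fell by 1.33 and Naip6 by 0.75, and Naip2 and Naip5 were also lower, although these neighbouring copies can share reads. Their partner Nlrc4 rose by 0.56, to 43.6 ± 1.25 CPM. Nlrp3, the best known inflammasome sensor, held at most 0.0650 ± 0.0377 CPM in any group and was too low to test.

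Of 17 other Toll-like receptors and co-receptors 10 were tested, with 3 higher, 5 lower and 2 not past at 0.5 µg/ml (median -0.20). Tlr4, the lipopolysaccharide receptor, and its partner Ly96 (MD-2) rose by 1.50 and 1.07, to 1.82 ± 0.171 and 5.12 ± 0.140 CPM, while the co-receptor Cd14 fell by 1.47 to 2.01 ± 0.0284 CPM. Tlr5, the flagellin receptor, fell by 1.55, from 1.54 ± 0.168 to 0.526 ± 0.0659 CPM. Among the 22 receptor adaptors and kinases 8 rose, 9 fell and 5 did not pass (median -0.10). Tirap, which brings Myd88 to Tlr2 and Tlr4, rose by 2.06 from 15.2 ± 0.374 to 63.4 ± 1.63 CPM, and the kinase Irak1 rose by 0.88, while Irak2 and Irak4 fell by 0.53 and 0.43.

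The NOD signalling and muropeptide transport list had 13 of 19 genes tested, with 7 higher, 2 lower and 4 not past (median 0.28). Ripk2, the kinase that NOD1 and NOD2 share, stood at 4.07 ± 0.428, 5.47 ± 0.241 and 16.8 ± 1.50 CPM by rising dose, a rise of 2.05. Slc15a1 (PepT1), a peptide carrier that can take up muropeptides, rose by 2.43 to 12.5 ± 1.04 CPM, and the related Slc15a2 fell by 0.59, a call lost without control replicate 1 (edgeR adjusted p = 0.0767) or high-dose replicate 1 (0.147). Erbin, a NOD2-binding scaffold gene, fell by 0.40. Of 13 NF-kB core genes 7 rose, 5 fell and 1 did not pass (median 0.22): Nfkb2 and Rel rose by 0.98 and 0.96, and Nfkb1 and Bcl3 fell by 0.89 and 0.85.

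Other executors did not follow Gsdmd as a group. Of 20 pyroptosis executors and inflammatory caspases 14 were tested, with 7 higher, 5 lower and 2 not past (median 0.09). Casp1, the caspase of canonical inflammasomes, stood at 51.4 ± 4.16 CPM in control, 53.8 ± 0.558 CPM under the low dose and 26.0 ± 0.0372 CPM under the high dose, where it fell by 0.98. Casp4 (caspase-11), which binds lipopolysaccharide in the cytosol, fell by 1.58, from 13.8 ± 1.76 to 4.62 ± 0.491 CPM. Txnip, a redox protein linked to NLRP3, fell by 1.69. Gsdma rose by 6.19, from 0.101 ± 0.00110 to 7.49 ± 0.362 CPM, and Gsdmc2, with no control count, reached 3.27 ± 0.100 CPM, at least 53.9-fold higher, with reads that near-identical Gsdmc copies can share. Ninj1, which ruptures the membrane after pore formation, held 18.1 ± 0.00118 CPM in control and 17.7 ± 0.622 CPM at 0.5 µg/ml and did not pass.

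Of 18 IL-1 family cytokine and receptor genes 9 were tested, with 4 higher, 1 lower and 4 not past (median 0.41). The shared receptor chain Il1rap rose by 1.94 to 29.8 ± 1.29 CPM. The receptor antagonist gene Il1rn rose by 0.58 to 15.0 ± 0.689 CPM, a call lost without control replicate 1 (edgeR adjusted p = 0.0696), without high-dose replicate 2 (0.0803) and with limma on TPM (0.324 to 0.497). The gene that fell, Il18r1, encodes the ligand-binding receptor of IL-18 and was below 0.5 CPM in every group mean, at 0.452 ± 0.123 CPM in control and 0.0115 ± 0.0162 CPM at 0.5 µg/ml. Of 12 cytosolic nucleic acid sensor genes 4 rose, 6 fell and 2 did not pass (median -0.18). The adaptor Mavs and the ubiquitin ligase Trim25 rose by 0.56 and 0.40, and the RNA sensors Ifih1 (MDA5) and Dhx58 (LGP2) fell by 0.72 and 0.86.

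**Figure D4:**
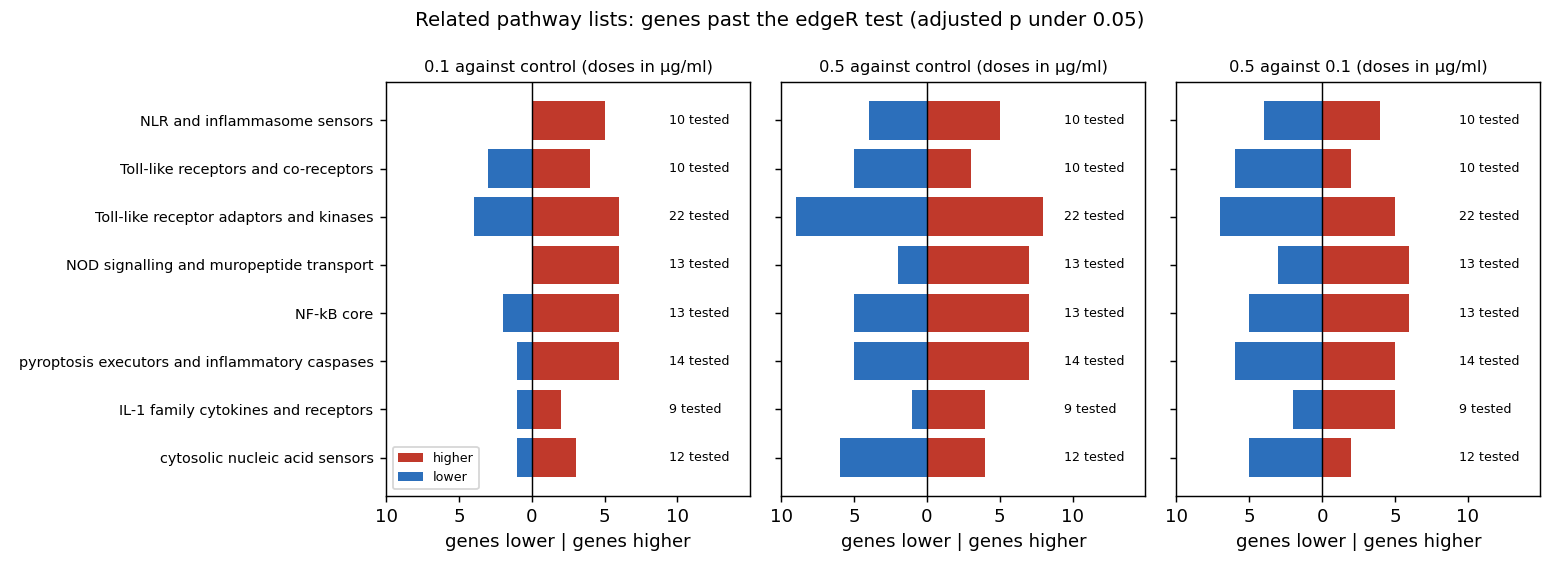
Bars count the genes of each related list called higher (right of 0) or lower (left of 0) in the 3 comparisons, with the number tested at the right. At 0.1 µg/ml the calls lean to the higher side (38 against 12 over the 8 lists). Calls over all tested genes lean the same way, though less (20.8% against 13.8%). At 0.5 µg/ml both directions are filled (45 against 37).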

How the data were processed

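RNA-seq was made from poly-A RNA of 6 organoid libraries with a strand-marking kit and paired reads of 100 bases, per the labels' protocols. Per the submitters' processing notes, RSEM 1.3.3, STAR 2.7.3a, Trim Galore and FastQC were used; GRCm39 and mm10 are both named as builds, and the sources do not say which applies. The authors deposited 1 table of gene-level expected counts and 1 of TPM, which carries no depth.

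Expected counts were rounded. edgeR 4.0.16 (R 4.3.3) filtered genes with filterByExpr, scaled by TMM and fitted all 6 libraries at once by quasi-likelihood, with group means, no covariate and 3 residual degrees of freedom; tests were two-sided with Benjamini-Hochberg adjustment over 16975 genes at 0.05. An exact permutation test of 2 against 2 libraries cannot go below p = 0.333. Symbols came from a GENCODE M21 table, which matched 52083 of 55416 identifiers. Related genes were named by rule: per list and direction, the 2 largest changes past the test at 0.5 µg/ml with at least 1 CPM in a group, plus Casp1, Casp4, Ripk2 and Nlrp3; Nlrp2, Nlrc4, Naip2, Naip5, Ninj1 and Il18r1 were chosen after their values were seen. Members and lists were chosen with earlier results of these data known. The fit was tested on simulated data. DESeq2 1.42.0, limma 3.58.1, other scalings, filters and left-out libraries were tried as alternatives.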

Additional observations from a re-analysis of the deposited data

How the results depend on the processing

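Across 15 alternatives no called change of the 10 genes reversed direction: 415 of 444 recomputed values kept their side of the threshold, 24 lost a call and 5 gained one. The 10 calls at 0.5 µg/ml against control held in every alternative that tested the gene except for Tlr2. On log2(TPM + 1), limma gave smaller changes for genes near 0 in control, by construction: Nlrp10 went from 5.05 to 1.20 (log2 fold change) at 0.1 µg/ml and from 9.83 to 5.19 at 0.5 µg/ml. limma at a minimum of 1 TPM left Nod2 untested. With limma and no filter, 3 of the 10 genes were called at 0.1 µg/ml. At that dose the related lists gave 23 calls with limma on log2(TPM + 1), 24 with a pseudocount of 0.1 and 18 with no filter, against 50, and all genes gave 3505, 3508 and 2520, against 5881; limma tested 13313 genes with its filter and 28962 without, and the cause of the remaining difference was not tested. Leaving out 1 library at a time gave 6 to 8 called members at 0.1 µg/ml, 9 to 10 at 0.5 µg/ml and 7 to 8 between the doses. The lists then gave 31 to 43, 75 to 86 and 59 to 76 calls, and all genes 3800 to 5248, 10080 to 11633 and 8120 to 10269; the lowest values at 0.1 µg/ml came without the deepest library, the first of that dose.

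Groups share replicate numbers, but the labels do not say that a number pairs libraries. Deviations of equally numbered libraries correlated across genes at -0.14 (control and 0.1 µg/ml), 0.13 (control and 0.5 µg/ml) and -0.03 (between the doses), so the numbers were not taken as pairs. With the replicate block 8, 10 and 7 of the 10 genes were called at 0.1 µg/ml, at 0.5 µg/ml and between the doses, as without it, and all genes gave 5265, 11162 and 9607 calls. With upper quartile scaling, all genes gave 3037 higher and 2986 lower calls at 0.1 µg/ml (3531 and 2350 with TMM), and 5121 and 6592 at 0.5 µg/ml (5839 and 5626), so the direction in which all genes lean depends on the scaling; the calls of the 10 genes stood at 6 higher and 2 lower, and 7 and 3, under both. Tlr2 and Nod2 rest on 87 to 241 counts per library, and Nlrp10 in control on 7 and 9.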
